A study of Homo sapiens with 6 samples.

Results

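Heat shock and cytosolic chaperone genes were compared between spheroids and monolayers of NCI-H226, an established human mesothelioma cell line. The 41 genes are a textbook list that comprises the HSP70, HSP110, HSP90, HSP40 and small HSP families, the mitochondrial chaperonin, the subunits of the CCT ring, co-chaperones and heat shock factors. A gene entered through the array annotation, and 93 of the 54613 probe sets tested named a gene of the list. These probe sets named 39 of the 41 genes, while AHSA1 and HSF2 were not analysed here. HSPA1A and HSPA1B are near-identical copies that shared their probe sets and were read as 1 gene, so that 38 probe sets, each the brightest of its gene, stood for 39 genes out of 19775 gene symbols read on the array. RNA came from 3 monolayer cultures and 3 spheroid cultures, labelled as biological replicates 1 to 3, with 1 array for each culture. Monolayers grew attached to plastic. Spheroids were made without any matrix from 10000 cells each on poly-HEMA, a coating that prevents attachment, and were kept for 24 hours. Both groups came from the same cell line, maintained in serum-containing medium, with no drug and no heat shock named for either, and a single cell line stands for mesothelioma.

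Molecular chaperones bind unfolded or unfinished proteins and help them reach their final shape. HSP70 works with HSP40 partners, which deliver clients, and with HSP110 and BAG proteins, which release the nucleotide and so the client. HSP90 receives clients from HSP70 through STIP1 and completes them together with CDC37, FKBP4 and other co-chaperones. The CCT ring, also named TRiC, folds actin and tubulin in a closed chamber. Heat and other protein-damaging stress lead the transcription factor HSF1 to bind heat shock elements in promoters, which raises HSPA1A, HSPA1B, HSPA6, DNAJB1, HSPH1 and HSPB1 most steeply, whereas HSPA8 and HSP90AB1 are made at all times.

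Median array signals lay between 14.6 and 18.1, the highest being that of spheroid 2, although the trimmed mean was 150 on every array. Of 11 mesothelial markers, 10 were read, and their summed signal was 16840 to 24720 in monolayers and 23220 to 26460 in spheroids. Signals of the mesothelial markers WT1 and MSLN averaged 1548 ± 262.5 and 247.5 ± 86.97 (SD, n = 3) in monolayers. Monolayer replicates were uneven for other mesothelial markers, with monolayer 1 the highest. Monolayers 1 to 3 had 1582, 163.4 and 83.62 for CALB2, 1845, 129.9 and 79.28 for KRT5, and 1783, 692.3 and 427.3 for UPK3B. Sums add probe sets of different brightness, so the brightest of a list weigh most in them. The sums over the measured leukocyte markers, 4 of 6, were 104.4 to 127.1 in monolayers and 143.3 to 179.3 in spheroids. PTPRC, which defines leukocytes, averaged 3.92 ± 2.60 in monolayers and 13.1 ± 0.88 in spheroids. CD14 of monocytes averaged 21.0 ± 7.51 and 44.0 ± 5.89. The groups did not overlap for either, nor for CD3E (log2 difference 0.55). ITGAM had signals of 62.25, 79.56 and 102.7 in monolayers and 108.5, 89.46 and 61.46 in spheroids. These overlapped, with a log2 difference of -0.07. The 5 endothelial markers summed to 233.8 to 474.3 in monolayers and 171.4 to 222.2 in spheroids, with CDH5 at 2.67 ± 2.04 and 1.60 ± 0.91 and VWF at 3.17 ± 0.64 and 16.8 ± 9.91. KDR had signals of 422.2, 13.59 and 8.352 in monolayers 1 to 3 and of 61.25, 14.37 and 32.91 in spheroids 1 to 3. Those of TIE1 were 19.32, 204.4 and 205.2 in monolayers and 62.44, 164.6 and 123.9 in spheroids. The 5 fibroblast markers summed to 1141 to 1628 and 1454 to 1742, with COL1A1 at 1327 ± 271.3 and 1423 ± 164.5 and DCN at 14.4 ± 2.78 and 24.5 ± 1.44. Among the mesothelial markers PDPN was higher in spheroids (2.14-fold, limma adjusted p = 0.0396) and the other 9 did not pass. Those 9 ranged from 2.37-fold lower for THBD (adjusted p = 0.109) to 5.62-fold higher for CALB2 (adjusted p = 0.125). The groups did not overlap for THBD and overlapped for CALB2. No marker of the 3 other cell types passed the test in either direction, and their part in the results below was not tested.

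The chaperone genes that passed the test were all lower in spheroids. Signals were transformed to log2, centred on the median of each array and compared by limma, and a gene was called at a Benjamini-Hochberg adjusted p under 0.05. Signals are printed as deposited throughout, whereas differences and folds are of the centred values unless another scaling is named. Of the 38 gene readings, 9 were lower, 0 were higher and 29 did not pass. The 9 lower genes were HSPA4L, HSPA4 and HSPA14 of the HSP70 and HSP110 families, the co-chaperones FKBP4, STIP1 and BAG2, and the CCT subunits TCP1, CCT6A and CCT7. They made up 23.7% of the readings, where 9.22% of all genes were lower and 3.88% were higher. With only probe sets above the median level, which keeps all 38 readings, 14 were lower and 0 higher. Of all genes kept there, 18.1% were lower and 7.75% higher. Without centring, 8 readings were lower and 0 higher, where 7.58% of all genes were lower and 6.76% higher. At an unadjusted p under 0.05, limma gave 18 lower and 0 higher readings, with 17.9% of all genes lower and 9.62% higher. The methods' t-test gave 3 lower and 0 higher readings after adjustment, with 2.65% of all genes lower and 0.662% higher. At the level of probe sets, 24 of 93 (25.8%) were lower, 0 were higher and 69 did not pass, against 6.65% lower and 2.78% higher among all probe sets. At an unadjusted p under 0.05, 42 of the 93 probe sets were lower and 2 were higher, with 14.6% lower and 7.88% higher among all probe sets. In these bulk samples a lower signal is a smaller share of the RNA of the culture, and fewer cells with the RNA cannot be told apart from less of it per cell.

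**Figure D1:**
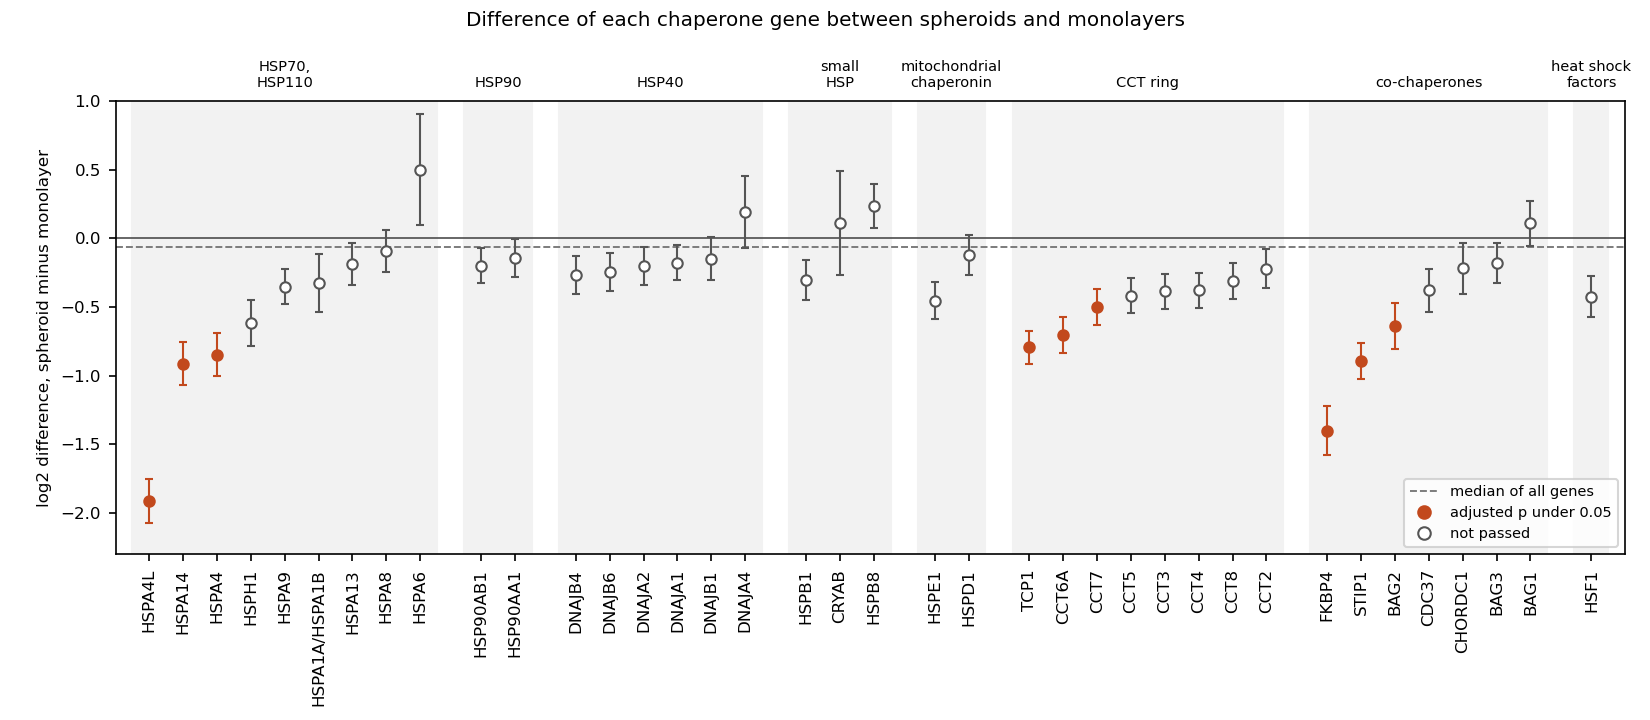
Difference of each chaperone gene, as the mean centred log2 signal of 3 spheroid arrays minus that of 3 monolayer arrays, grouped by family. Points show the difference and bars its standard error, filled points passed the test, and the dashed line is the median of all genes. All 9 filled points lie below 0, and 33 of the 38 points do, where 54.0% of all genes do.

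Counted without regard to the test, the difference was negative for 33 of the 38 readings and positive for 5, where 54.0% of all genes were negative. Without centring 31 readings were negative, where 44.1% of all genes were. In the centred values the median difference was -0.31 on the log2 scale, and that of all genes was -0.06. Without centring, the median of all genes moved by 0.14 to 0.08, and that of the chaperone genes was -0.16, so the distance between them was -0.25 under both scalings. Quantile normalization gave a distance of -0.24. All 38 readings came from probe sets above the median level. The median over all of those probe sets was -0.13, and over all probe sets tested -0.08. By family, the median was -0.43 for HSF1 alone, -0.40 for the CCT ring, -0.38 for the co-chaperones, -0.35 for HSP70 and HSP110, -0.29 for the mitochondrial chaperonin, -0.19 for HSP40, -0.17 for HSP90 and 0.11 for the small HSP family. Without centring the medians of HSP90 and HSP40 were -0.03 and -0.04. With each gene read as the mean of its probe sets, the medians were -0.34 for HSP90, -0.66 for the 7 HSP70 and HSP110 genes that have such a mean, -0.44 for the mitochondrial chaperonin and -0.57 for HSF1.

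**Figure D2:**
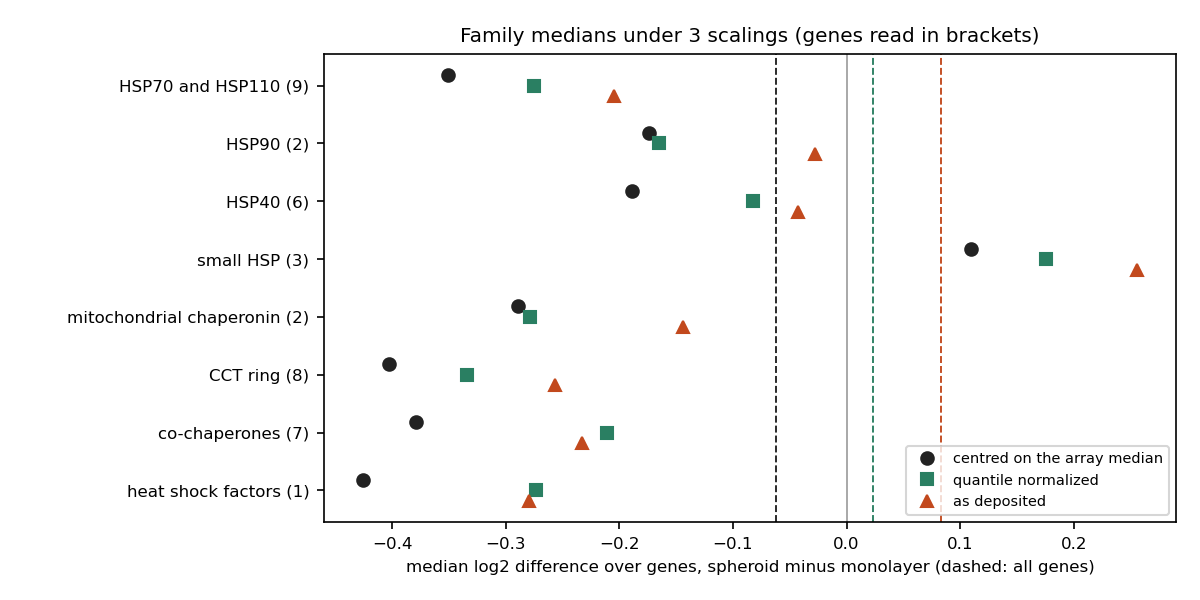
Median log2 difference of the genes of each family, spheroid minus monolayer, with values centred on the array median, quantile normalized or as deposited, with the number of genes read in brackets. Dashed lines are the medians of all genes under the same scaling, at -0.06, 0.02 and 0.08. The family medians lie below the line of their own scaling except that of the small HSP family, which is above it under all 3.

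Heat shock elements were searched in the 250 bases upstream of the start of each gene, since they are the sites through which HSF1 acts. The sequences were those of RefSeq on GRCh38.p14. The unit of the element is GAA, repeated in alternating orientation, and a match of 3 units was GAANNTTCNNGAA or TTCNNGAANNTTC. These are the reverse complement of each other, so both strands were covered, and each holds the shorter motifs of 2 units, GAANNTTC and TTCNNGAA. Matches of 3 units were present in 152 of 27305 genes (0.557%) and in 7 of the 36 chaperone genes searched (19.4%). Matches of 2 units were present in 3813 genes (14.0%) and in 19 chaperone genes (52.8%). HSPA14, CRYAB, HSF1, FKBP4 and CCT6A were not searched. The first 7 sequences below show 1 stretch with 3 or more units of each gene that has one, and the other 5 show the matches of 2 units of the inducible HSPA1A and HSPA1B and of the 3 searched genes with such a match that were lower in spheroids. Capitals mark the matched units, which are 2 overlapping matches in HSPD1 and 3 in CHORDC1, and the sequences are given 5′ to 3′ on the strand of the gene.
HSPA6 (chr1:161524451-161524493, + strand): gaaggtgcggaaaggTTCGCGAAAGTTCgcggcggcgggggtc
HSPA8 (chr11:123062164-123062206, - strand): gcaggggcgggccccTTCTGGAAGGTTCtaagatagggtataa
HSP90AA1 (chr14:102087105-102087147, - strand): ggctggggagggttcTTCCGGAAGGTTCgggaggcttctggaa
HSP90AB1 (chr6:44247816-44247858, + strand): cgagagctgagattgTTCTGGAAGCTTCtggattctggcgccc
HSPD1 (chr2:197500053-197500090, - strand): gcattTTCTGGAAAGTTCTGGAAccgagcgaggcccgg
DNAJB6 (chr7:157336858-157336900, + strand): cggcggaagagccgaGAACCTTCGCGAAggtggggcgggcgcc
CHORDC1 (chr11:90223072-90223124, - strand): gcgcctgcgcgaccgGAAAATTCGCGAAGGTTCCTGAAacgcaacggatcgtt
HSPA1A (chr6:31815422-31815459, + strand): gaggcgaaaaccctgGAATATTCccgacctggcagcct
HSPA1B (chr6:31827618-31827655, + strand): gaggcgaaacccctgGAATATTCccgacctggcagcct
HSPA4L (chr4:127782137-127782174, + strand): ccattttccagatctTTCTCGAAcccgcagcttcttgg
BAG2 (chr6:57172187-57172224, + strand): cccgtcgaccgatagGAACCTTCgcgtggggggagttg
TCP1 (chr6:159789811-159789848, - strand): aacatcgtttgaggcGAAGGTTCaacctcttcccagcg

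None of the 7 genes with a match of 3 units passed at the probe set that read it, and these differences ranged from -0.24 to 0.50 on the log2 scale. HSP90AA1, HSP90AB1 and HSPD1 among them each had a dimmer probe set that was lower (limma adjusted p = 0.0230, 0.0174 and 0.0294). Of the 12 genes with matches of 2 units but not 3, among which HSPA1A and HSPA1B share 1 reading, 3 were lower, namely HSPA4L, BAG2 and TCP1. Of the 15 analysed genes with neither, 3 were lower, namely HSPA4, STIP1 and CCT7. HSPA14, FKBP4 and CCT6A were lower too but were not searched, so they are absent from these counts. Among all genes on the array, 9.22% were lower. A match is a description of the letters and does not show that a factor binds there.

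The inducible HSP70 genes did not pass the test. HSPA1A and HSPA1B encode the HSP70 that cells make in large amounts after stress. Their shared probe set, which the annotation also assigns to HSPA1L, had signals of 2691, 2018 and 2947 in monolayers 1 to 3 and of 1639, 3157 and 2136 in spheroids 1 to 3. The groups overlapped, and spheroid 1 was the lowest and spheroid 2 the highest of all 6 arrays. The log2 difference was -0.32 ± 0.21 (SE, n = 3 per group; limma adjusted p = 0.429), and the other probe sets of the pair gave -0.01 and -0.02. HSPA6, a strictly inducible HSP70, had signals of 13.8, 12.2 and 19.4 in monolayers and 14.2, 39.7 and 22.1 in spheroids at the probe set that read it. These overlapped, with spheroid 2 the highest, and the log2 difference of 0.50 ± 0.40 did not pass (adjusted p = 0.540). The second probe set of HSPA6, 213418_at, had signals of 3.23, 2.93 and 6.57 in monolayers and 8.62, 33.8 and 27.6 in spheroids. All spheroids were above all monolayers there, at low signals, the 20th percentile of all signals being 3.11. The log2 difference was 2.19 ± 0.61 with an adjusted p of 0.0574. Over the 12 alternatives in which it was tested, the adjusted p ranged from 0.0271, without spheroid replicate 1, to 0.205.

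**Figure D3:**
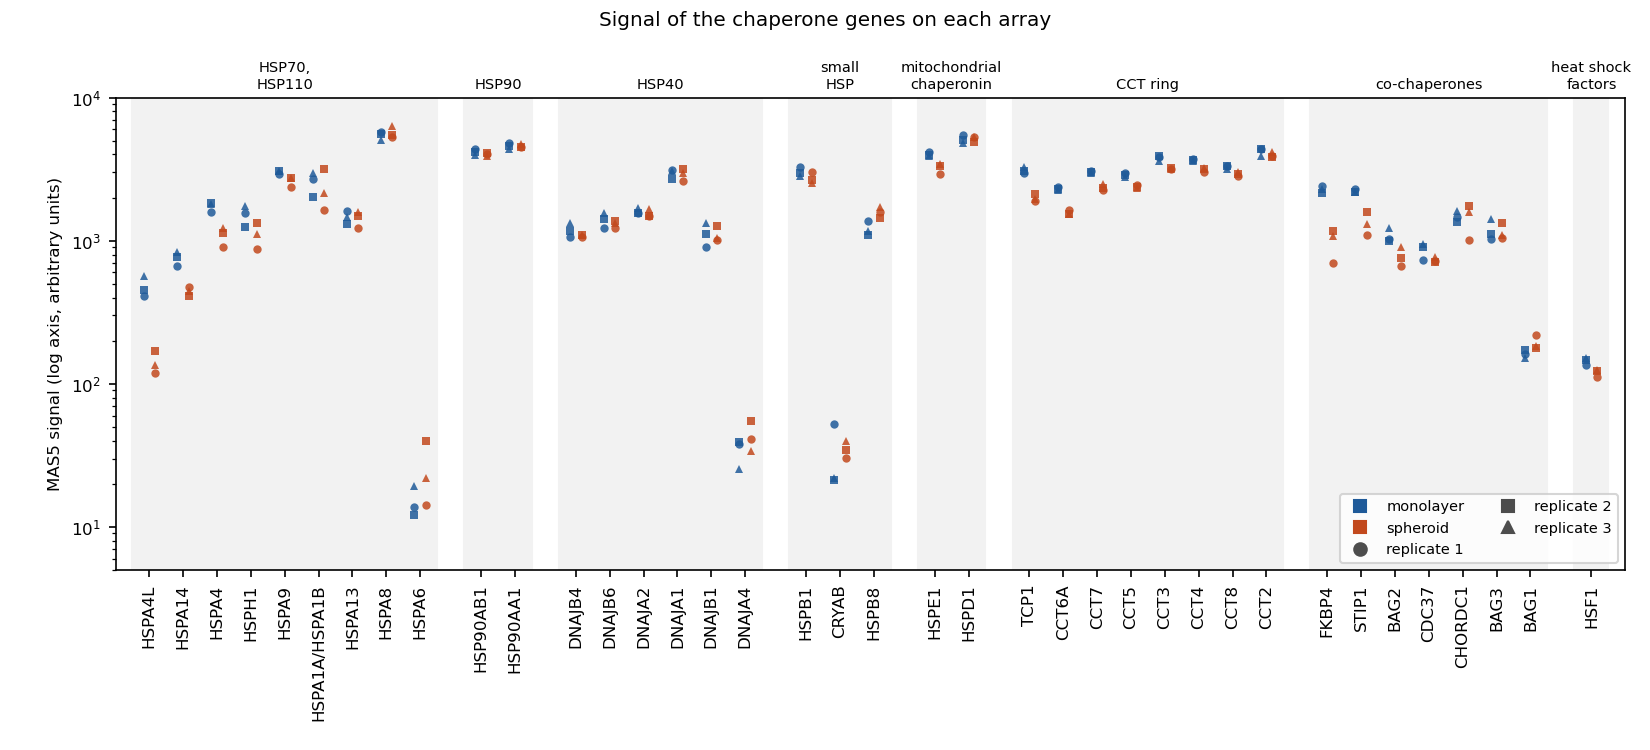
Deposited MAS5 signal of each chaperone gene on each array, on a log axis, with colours for the groups and marker shapes for the replicate numbers. The 9 genes that passed have all spheroid points below all monolayer points, whereas those of HSPA1A/HSPA1B and HSPA6 are interleaved. Signals of different genes come from different probes and their heights are not comparable.

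HSPA4L, an HSP110 relative that serves HSP70 as a nucleotide exchange factor, had the largest difference of the 38 readings. Its signals were 413, 453 and 568 in monolayers and 118, 168 and 136 in spheroids. All 3 spheroids were well below the lowest monolayer. Expression fell by 1.91 on the log2 scale, or 3.76-fold (SE 0.16, n = 3 per group; limma adjusted p = 0.000611). Its other probe set, 1556194_a_at, was lower by 1.75-fold (adjusted p = 0.00909), and the mean of both gave a log2 difference of -1.36, beside -1.31 for the mean of the FKBP4 probe sets. HSPA4, the closely related exchange factor, had signals of 1585, 1845 and 1806 in monolayers and 896, 1123 and 1222 in spheroids. The groups did not overlap, and the log2 difference was -0.85 ± 0.15 (1.80-fold lower, adjusted p = 0.0104). This call was lost without monolayer replicate 2 or 3, with an adjusted p of up to 0.0604. HSPH1, the heat-inducible HSP110, had 1557, 1253 and 1759 in monolayers and 870, 1325 and 1115 in spheroids. These deposited signals overlapped at spheroid 2 and monolayer 2, whereas the centred values did not, and the difference of -0.62 ± 0.17 did not pass (adjusted p = 0.0539), although a second probe set, 208744_x_at, was lower by 1.81-fold (adjusted p = 0.0101).

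HSPA14, an HSP70-like protein that attaches to ribosomes, had signals of 665, 773 and 827 in monolayers and 474, 407 and 447 in spheroids. The groups were separate, and expression was 1.88-fold lower in spheroids (log2 difference -0.91 ± 0.16, limma adjusted p = 0.00788). All 3 probe sets of HSPA14 were lower, with differences from -1.20 to -0.57. The constitutive HSPA8 had 5082 to 5723 in monolayers and 5296 to 6274 in spheroids. Its log2 difference was -0.09 centred and 0.06 as deposited, and did not pass. HSPA9, the HSP70 of mitochondria, had a difference of -0.35 (adjusted p = 0.140), and HSPA13, a microsome-associated HSP70, of -0.19 at the probe set that read it. Of the 9 HSP70 and HSP110 readings, 3 were lower, where 9.22% of all genes were, and 6 did not pass. The differences of those 6 ran from -0.62 to 0.50.

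Neither HSP90 gene passed at its brightest probe set, with 0 at an unadjusted p under 0.05 and 0 in the methods' t-test. HSP90AB1, the constitutive form, had signals of 4335, 4192 and 3972 in monolayers and 4008, 4078 and 3932 in spheroids. The deposited signals overlapped and the centred values did not, and the log2 difference was -0.20 ± 0.13 (limma adjusted p = 0.416). HSP90AA1, the inducible form, had 4342 to 4809 and 4490 to 4743, and a difference of -0.15 (adjusted p = 0.613). Each gene had 1 other probe set that was lower in spheroids, namely 211968_s_at of HSP90AA1 (1.48-fold, adjusted p = 0.0230) and 1557910_at of HSP90AB1 (1.56-fold, adjusted p = 0.0174). Both genes are among the 7 with a heat shock element of 3 units.

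Of the 7 co-chaperones read, 3 were lower in spheroids, namely FKBP4, STIP1 and BAG2, where 9.22% of all genes were lower. FKBP4, an immunophilin that binds HSP90 and acts on steroid receptors, had signals of 2400, 2135 and 2310 in monolayers and 698, 1160 and 1076 in spheroids. All spheroids were below all monolayers, and spheroid 1 was the lowest. Expression was 2.64-fold lower (log2 difference -1.40 ± 0.18, limma adjusted p = 0.00212). STIP1, which joins HSP70 to HSP90, had 2277, 2179 and 2189 in monolayers and 1102, 1587 and 1304 in spheroids. Here too spheroid 1 was the lowest, and expression was 1.86-fold lower (-0.90 ± 0.13, adjusted p = 0.00384). BAG2, a co-chaperone of HSP70 that inhibits the ubiquitin ligase STUB1, had 1032, 992 and 1222 in monolayers and 661, 753 and 904 in spheroids. The groups came close without overlap, and the difference was 1.56-fold (-0.64 ± 0.17, adjusted p = 0.0467). That call was lost without monolayer replicate 2 or 3 or spheroid replicate 1 or 2, with an adjusted p of up to 0.171. It was also lost without centring (0.0614), after quantile normalization (0.0578), with the floor (0.0591) and with the mean of its probe sets (0.129). The other 4 co-chaperones read did not pass, with differences from -0.38 for CDC37, which brings kinases to HSP90, to 0.11 for BAG1. BAG3, a stress-inducible partner of HSP70, had a difference of -0.18 and CHORDC1, an HSP90 partner, of -0.22.

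All 8 subunits of the CCT ring had negative differences, where 54.0% of all genes did. Of the 8 subunits, 3 passed as lower, where 9.22% of all genes were lower. TCP1, the alpha subunit, was read by a probe set that the annotation shares with SNORA29, a small RNA within the gene. Its signals were 2985, 3059 and 3275 in monolayers and 1904, 2105 and 1940 in spheroids. Centred expression was 1.73-fold lower (log2 difference -0.79 ± 0.12, limma adjusted p = 0.00449), and the difference without centring was -0.65. CCT6A, the zeta subunit, had 2378, 2278 and 2263 against 1632, 1530 and 1536. It was 1.63-fold lower when centred (-0.70 ± 0.13, adjusted p = 0.0109), with a difference of -0.56 without centring. CCT7, the eta subunit, had 3074, 3022 and 2976 against 2273, 2345 and 2476. It was 1.42-fold lower when centred (-0.50 ± 0.13, adjusted p = 0.0454), with a difference of -0.36 without centring. The groups were separate for all 3 genes, and replicates lay close together. CCT6A lost its call without monolayer replicate 2 or 3, with an adjusted p of up to 0.0615, and CCT7 lost it without any 1 of the 6 arrays, at 0.0516 to 0.172, and with the floor at the 20th percentile (0.0575) or the replicate block (0.0727). The remaining subunits had differences from -0.42 for CCT5 to -0.22 for CCT2. At an unadjusted p under 0.05, 7 of 8 subunits were lower, where 17.9% of all genes were. Under quantile normalization CCT3, CCT4, CCT5 and CCT8 passed as well, where 7.64% of all genes were lower. No subunit changed sign under any alternative.

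Neither gene of the mitochondrial chaperonin passed at its brightest probe set in limma or in the methods' t-test. At an unadjusted p under 0.05, 1 of the 2 genes was lower, where 17.9% of all genes were. HSPE1, the lid of the HSP60 chamber, had signals of 4174, 3934 and 3904 in monolayers and 2932, 3334 and 3446 in spheroids. The groups did not overlap, but the log2 difference of -0.46 ± 0.13 missed the threshold (limma adjusted p = 0.0697) and passed under quantile normalization. HSPD1, which encodes HSP60 itself, had 4794 to 5449 in monolayers and 4903 to 5320 in spheroids, and a difference of -0.12 (adjusted p = 0.702). Its dimmer probe set 243372_at was 1.74-fold lower (limma adjusted p = 0.0294).

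None of the 6 HSP40 genes passed in limma at the probe set that read it. At these probe sets 0 were lower or higher at an unadjusted p under 0.05, and 0 passed in the methods' t-test. DNAJB1, the heat-inducible HSP40, had signals of 909, 1110 and 1337 in monolayers and 1014, 1262 and 1045 in spheroids. The groups were interleaved, and the log2 difference was -0.15 ± 0.15 (adjusted p = 0.650) and 0.01 under quantile normalization. DNAJB4, with the smallest p of the family, had 1058, 1163 and 1331 against 1062, 1091 and 1093, a difference of -0.27 ± 0.14 (adjusted p = 0.294). The other 4 differed by -0.24 for DNAJB6 to 0.19 for DNAJA4. Other probe sets were lower at an unadjusted p under 0.05, namely 203811_s_at of DNAJB4 (-0.606), 200664_s_at of DNAJB1 (-0.385) and 208811_s_at of DNAJB6 (-0.383). None of these passed after adjustment, and the annotation also assigns the last to TMEM135. No HSP40 probe set was higher at the unadjusted threshold. DNAJA2, an HSP40 of the cytosol, had a second probe set, 226994_at, with a difference of 0.26, which did not pass in the centred values but passed as higher without centring (0.41, adjusted p = 0.0425) and after quantile normalization (0.45, adjusted p = 0.0294).

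The small HSP family was the only family with a positive median, and none of its 3 genes passed in limma, at an unadjusted p under 0.05 or in the methods' t-test. HSPB1, which encodes HSP27, had signals of 3274, 2988 and 2836 in monolayers and 3011, 2648 and 2509 in spheroids. The groups overlapped, and the log2 difference was -0.30 ± 0.14 (adjusted p = 0.260). HSPB8, a partner of BAG3, had 1092 to 1361 in monolayers and 1431 to 1705 in spheroids, a difference of 0.24 (adjusted p = 0.455). CRYAB, or alpha B crystallin, was the middle gene of the 3 with 0.11. Its monolayer 1 stood at 52.4 and the other monolayers at 21.2 and 22.0, against 30.3 to 39.8 in spheroids. The family median was -0.12 without monolayer replicate 2, -0.09 without monolayer replicate 3 and -0.04 without spheroid replicate 3.

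HSF1, the activator of the heat shock response, had signals of 136, 148 and 151 in monolayers and 111, 122 and 125 in spheroids. All spheroids were below all monolayers, and the log2 difference of -0.43 ± 0.15 did not pass (limma adjusted p = 0.124). HSF1 activity depends on its trimerization and phosphorylation, which RNA does not show.

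Probe sets of the same gene did not always give the same call. Of 14 genes with a lower probe set, all probe sets were lower for 5, namely HSPA4L, HSPA14, STIP1, CCT6A and CCT7, the last of which has only 1. The other 9 had lower probe sets beside others that did not pass. Of these, 5 were called only at a dimmer probe set than the one that read the gene: HSP90AA1, HSP90AB1, HSPA13, HSPD1 and HSPH1. HSPA13 was 1.69-fold lower at 202558_s_at (limma adjusted p = 0.0137) and HSPD1 1.74-fold lower at 243372_at (adjusted p = 0.0294). HSPA4 was lower at 3 probe sets, whereas another, 208814_at, had signals of 587, 435 and 393 in monolayers and 468, 491 and 529 in spheroids and a difference of -0.05. Probe sets differed in sign for HSPA8, HSPB8, DNAJA2, DNAJA4, DNAJB6, CCT4 and HSPD1, without a call on the positive side. The 2 probe sets that were higher at an unadjusted p under 0.05 were 213418_at of HSPA6 and 229720_at of BAG1, a nucleotide exchange factor of HSP70. The latter had signals of 26.8, 25.2 and 16.6 in monolayers and 54.8, 44.7 and 39.5 in spheroids and a difference of 0.89 (limma adjusted p = 0.0961).

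**Figure D4:**
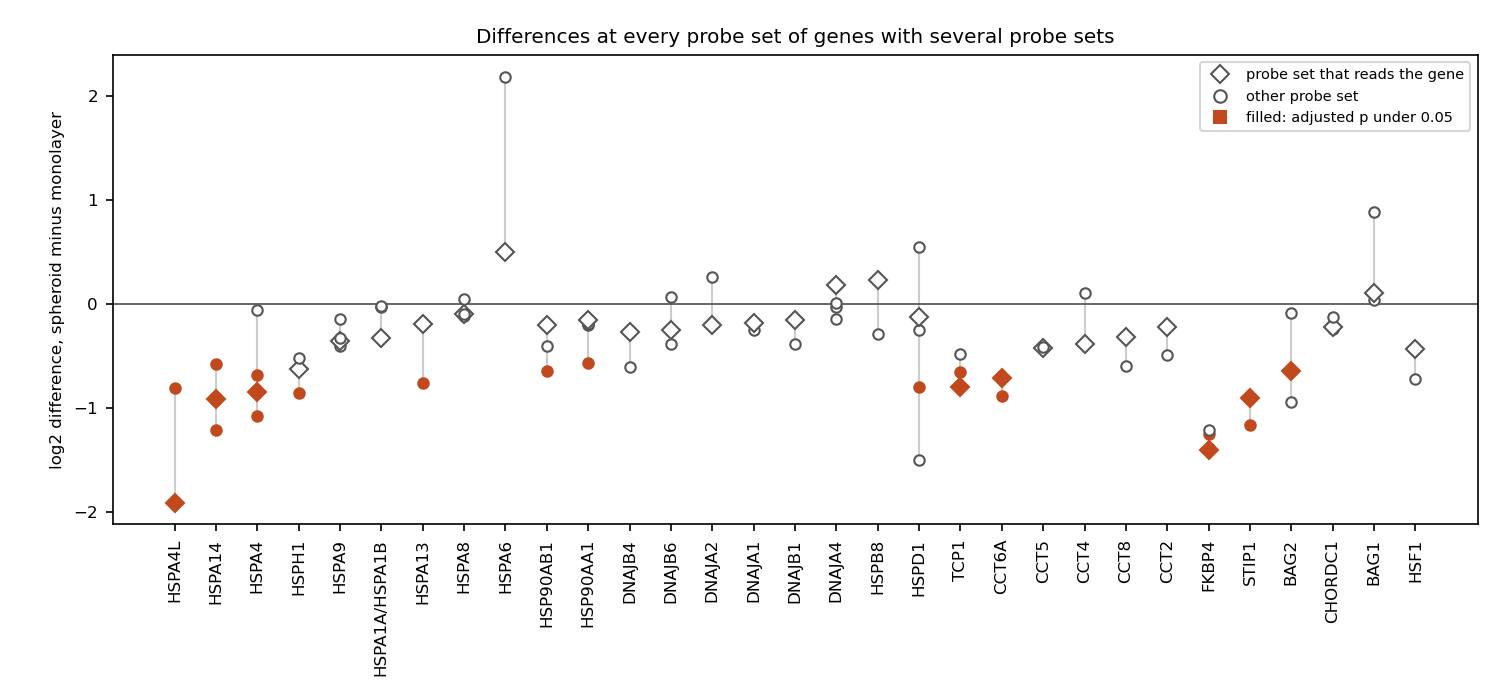
Log2 difference, spheroid minus monolayer, at every probe set of the chaperone genes that have several. Diamonds are the probe sets that read the gene, circles the others, and filled symbols passed the test. All filled symbols are below 0, and HSPA6 shows the widest gap upwards, from 0.50 to 2.19.

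Spheroid replicates did not vary alike in all genes. On the centred log2 scale, spheroid 1 was below the spheroid mean by 0.64 for HSPA6, 0.42 for CHORDC1, 0.39 for FKBP4, 0.38 for HSPA1A/HSPA1B and 0.26 for HSPH1. Spheroid 2 was above it by 0.62 for HSPA6 and 0.35 for HSPA1A/HSPA1B. In the CCT ring the order was the other way, and spheroid 2 was the lowest of the spheroids for all 8 subunits, by 0.07 to 0.20 below the mean. Spheroid 2 is the array with the highest median, which centring subtracts, and its deposited signal was the lowest of the spheroids only for CCT2 and CCT6A among the 8 subunits.

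Other genes of protein folding and turnover were counted as lists that do not share genes with the 41. Among 29 other cytosolic chaperones and co-chaperones, 6 were lower and 2 higher, with a median log2 difference of -0.17, which was -0.02 without centring. The shares of all genes were 9.22% lower and 3.88% higher. FKBP5, the relative of FKBP4 at HSP90, was lower (-1.07 ± 0.16, limma adjusted p = 0.00463), and so was CACYBP, a calcyclin-binding protein of a ubiquitin ligase complex (-0.74 ± 0.12, adjusted p = 0.00747). DNAJB2, an HSP40 that also binds ubiquitin, was higher, with signals of 79.8, 72.0 and 70.3 in monolayers and 273, 198 and 170 in spheroids (1.36 ± 0.21, adjusted p = 0.00465). CCT6B, a testis-type relative of CCT6A, was the other higher gene (1.11 ± 0.26, adjusted p = 0.0313). The count of lower genes was 1 without monolayer replicate 3, 3 without monolayer replicate 2 or spheroid replicate 2 and 4 without spheroid replicate 1 or 3, and that of higher genes was 1 without monolayer replicate 3 or any of the 3 spheroids.

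Mitochondrial protein quality control had the largest share of lower genes of these lists, 5 of 9, where 9.22% of all genes were lower. Its median was -0.55. All 9 differences were negative, while without centring 8 were, with a median of -0.41, and after quantile normalization 7. Of all genes, 54.0%, 44.1% and 48.2% were negative in the same order. TRAP1, the HSP90 of mitochondria, had 1270, 1340 and 1301 in monolayers and 616, 606 and 560 in spheroids and was 2.43-fold lower (limma adjusted p = 0.000776). CLPB, a disaggregase of mitochondria, had 223, 267 and 251 against 110, 113 and 104 and was 2.50-fold lower (adjusted p = 0.00118). DNAJA3, the HSP40 of mitochondria, was 1.76-fold lower (adjusted p = 0.00563). The count was 3 without monolayer replicate 2 or 3 or spheroid replicate 1, and 4 to 6 without each of the others.

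None of 5 prefoldin subunits (median -0.19, or -0.04 without centring), which pass clients to the CCT ring, passed in limma or in the methods' t-test. VBP1 (-0.48) and PFDN2 (-0.48), 2 of the 5, were lower at an unadjusted p under 0.05, where 17.9% of all genes were. Of 27 proteasome genes, all had negative centred differences, with a median of -0.26, whereas 21 did without centring, with a median of -0.11, and 24 after quantile normalization. Of all genes, 54.0%, 44.1% and 48.2% were negative in the same order. In the centred values 9.22% of all genes were lower, and so were 2 of the 27 proteasome genes. They were the ATPase PSMC3 (1.54-fold, limma adjusted p = 0.0223) and the lid subunit PSMD12 (1.41-fold, adjusted p = 0.0443). That count was 0 without monolayer replicate 2, monolayer replicate 3 or spheroid replicate 1, 1 without spheroid replicate 2 and 3 without spheroid replicate 3. Of 14 ER chaperones, 0 were lower in limma, at an unadjusted p under 0.05 or in the methods' t-test, and the median was -0.03, or 0.12 without centring. DNAJB9, a partner of HSPA5 in the ER, was the single higher one, with 974, 688 and 825 in monolayers and 1999, 1878 and 2492 in spheroids (2.32-fold, adjusted p = 0.00563). Among all genes 3.88% were higher.

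The calls depended on the variance model. Without the mean-variance trend in limma, HSPA4L was the only chaperone gene called (adjusted p = 0.0444), and the methods' t-test called HSPA4L, STIP1 and TCP1. FKBP4, HSPA14, HSPA4L, STIP1 and TCP1 passed without any 1 of the 6 arrays.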

How the data were processed

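RNA was hybridized to Affymetrix Human Genome U133 Plus 2.0 arrays. The deposited values are linear signal intensities per probe set, which the authors made with the MAS5 algorithm, each array scaled to a trimmed mean of 150. The methods also name a median normalization in Genespring that is not visible in these values. Detection calls were not used here, so signal over background is unknown and precision rests on 3 arrays per group.

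Log2 values were centred on each array's median, with no pseudocount, floor or filter, and the groups were compared with limma 3.58.1 in R 4.3.3 (empirical Bayes with trend). Adjustment ran over all 54613 probe sets that are no controls. A gene was read by the brightest probe set with its symbol alone, or else by the brightest shared one (HSPA1A/HSPA1B, HSPA8, TCP1). The annotation gives 1 symbol to 41091 of these probe sets, several to 1801 and none to 11721. Genes and lists were chosen with earlier results of these data known.

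Signals per array are given for genes that passed (at most 4 per family), for the gene of smallest p where none passed, and for HSPA1A, HSPA1B, HSPA6, HSPB1, DNAJB1, HSPH1 and HSF1. Of each pathway list at most 3 genes, by adjusted p, are named. CCT6B, the ranges of HSPA8, HSP90AA1, HSPD1, HSPB8 and CRYAB, and single-array deviations were chosen after their values were seen. Alternatives were values without centring or quantile normalized, a floor at percentile 20, a filter on probe sets under the median level, limma with no trend, the methods' t-test, a replicate block, each array left out, and gene means over probe sets. The scripts were tested on simulated data.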

Additional observations from a re-analysis of the deposited data

How the results depend on the processing

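No called gene changed direction under any alternative, and 0 genes were higher under all of them. The count of lower genes was 14 with only probe sets above the median level, 1 without the trend and 3 in the methods' t-test, 5 to 8 when each array was left out in turn, and 7 to 13 in the other settings, against 9. Of all genes, 18.1%, 0.718%, 2.65% and 4.48 to 10.8% were lower in the first 4 of these settings, against 9.22%. In the other settings the share was 7.47 to 10.5%. It did not always move with the chaperone count, which was 13 after quantile normalization, where 7.64% of all genes were lower. Lower probe sets numbered 1 without the trend, 7 in the t-test and 11 to 24 with an array left out, against 24, and all probe sets lower were 0.515%, 1.78% and 2.95 to 7.90%, against 6.65%. The count of higher probe sets was 1 instead of 0 without centring, after quantile normalization, with only probe sets above the median level and with the replicate block, and 0 to 1 with an array left out (1 without spheroid replicate 1). These were 226994_at of DNAJA2 in the first 2 settings, 229720_at of BAG1 in the third and 213418_at of HSPA6 in the others. The cause was not tested. The replicate block gave 9 lower genes, with CCT7 lost (adjusted p = 0.0727) and HSPH1 gained, and 25 lower probe sets. Deviations of arrays with the same number correlated at 0.0909, -0.0131 and 0.0223. These values run over all probe sets, dim ones included, and cannot decide whether the numbers pair the cultures. The main test did not use the numbers as pairs. Of the genes that did not pass, HSPA8 (0.056) and HSPD1 (0.022) turned positive without centring, DNAJB1 (0.013) after quantile normalization and DNAJA2 (0.031) with the mean of probe sets, where HSPB8 turned negative (-0.023). With an array left out, the difference ranged from -0.115 to 0.537 for CRYAB, -0.015 to 0.308 for DNAJA4, -0.009 to 0.238 for BAG1 and -0.212 to 0.016 for HSPA8. The mean of probe sets left HSPA1A/HSPA1B, HSPA8 and TCP1 untested. Over all settings run, lower genes numbered 0 to 7 among the other cytosolic chaperones (6 as reported), 1 to 6 in mitochondrial protein quality control (5), 0 to 7 in the proteasome (2) and 0 to 2 in prefoldin (0). The share of all genes that were lower ranged from 0.718% to 18.1% over these settings.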
